A study of Homo sapiens with 16 samples.

Results

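In Gemin5-silenced HEK293 cells, RNA recovered from polysomes was compared with RNA of the cytoplasmic lysates, group against group and without pairing the libraries. HEK293 is an established human embryonic kidney cell line. The members are the 8 libraries labelled siRNAG5, 4 of Input RNA and 4 of Polysome RNA, out of 16 libraries in the series. They were chosen by their labels, with earlier results of these data known. The siRNAG5 cells received 100 nM of a small interfering RNA against GEMIN5. The other 8 libraries (4 Input and 4 Polysome) are labelled Ctrl, and they are used here only where siRNAG5 values are set beside theirs. The labels call the Ctrl cells untreated whereas the protocol speaks of a control siRNA, so what the Ctrl cells received is uncertain. All libraries were described as poly(A)-selected and stranded, although the labels name the molecule as total RNA for Input and as polyA RNA for Polysome. A difference in selection between the fractions therefore cannot be told apart from a difference between polysome-bound and total RNA.

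An mRNA carrying several ribosomes sediments deep in a sucrose gradient, and the heavy fractions hold the polysomes. The ratio of an mRNA between those fractions and the lysate describes its share on polysomes and not its amount in the cell. mRNAs whose translation is held back are often light on polysomes. Well-known cases are the TOP mRNAs, which begin with a C followed by a run of pyrimidines and encode ribosomal proteins and elongation factors, and the ferritin mRNAs, whose leader folds into the iron-responsive element bound by the iron regulatory proteins. GEMIN5 is a subunit of the SMN complex, which assembles the Sm ring of spliceosomal small nuclear RNPs, and it also binds ribosomes and mRNAs.

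The sequences below are the siRNA target, the starts of 5 TOP mRNAs, and the leader of FTL, the coding gene with the lowest value. RPL12 and RPLP0 are from the ribosomal protein list, which has the lowest median log2 fold change here (-1.71). Mitochondrially encoded mRNAs are close to it (-1.67). RACK1, TPT1 and EEF1A1 are from the list of other TOP mRNAs (-1.29). The siRNA targets 19 bases of GEMIN5 in exon 18 of 28 of its canonical transcript, within the gene at chr5:154904608-154904626 on the minus strand (GRCh38), and the stretch was found in the transcripts of 1 gene:
GEMIN5 target: ccttaatcaagaagagaaa
The first 20 bases of 5 TOP mRNAs are given from the RefSeq gene starts (GRCh38.p14), with the C and the pyrimidine run that opens them in capitals. They lie at chr9:127451387-127451406 (RPL12), chr12:120201092-120201111 (RPLP0), chr5:181243887-181243906 (RACK1), chr13:45341164-45341183 (TPT1) and chr6:73521013-73521032 (EEF1A1), all on the minus strand:
RPL12: CCTCTCggctttcggctcgg
RPLP0: CCTTCTCTCgccaggcgtcc
RACK1: CTCTCTTTCactgcaaggcg
TPT1: CTTTTCCgcccgctcccccc
EEF1A1: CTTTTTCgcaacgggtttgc
For contrast, the start of PRPF8 (chr17:1684848-1684867, minus strand), among the lowest mRNAs on polysomes, and that of MTPN (chr7:135977340-135977359, minus strand), among the highest, do not open with such a run at the annotated first base, although in PRPF8 one follows from the next base:
PRPF8: acttcccggcgctgggaacg
MTPN: aagtgtaaaggttcctgcct
The leader of FTL, the ferritin light chain, is shown at chr19:48965333-48965358 (plus strand) with the CAGTG of the iron-responsive element's loop in capitals. CAGTG stands within the first 50 bases of 6.43% of the 27195 gene starts in that table, so its presence alone is common:
FTL: gtctcttgcttcaaCAGTGtttggac

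The siRNAG5 Input libraries held 18411789 to 24511299 reads on genes and the Polysome libraries 14407396 to 16884295. Reads mapping to several places took 5.30% to 6.04% of the Input reads and 26.3% to 42.4% of the Polysome reads, and they were not counted. The 4 Polysome libraries did not form one cluster. Libraries 1 and 4 deviated from the group mean together (r = 0.61 across genes), as did libraries 2 and 3 (r = 0.75), and the sets deviated against each other (r from -0.85 to -0.82). The first principal component of the 8 libraries held 75.3% of the variance and separated Polysome from Input, and the second, with 12.9%, separated the sets. The labels name no batch that matches them, so values with Polysome libraries 2 and 3 alone and with 1 and 4 alone are given where they depart clearly from the pooled value. Of 14 genes expressed in HEK293 cells, 13 had reads in Input and all 14 in Polysome, at a summed 1410 to 1730 CPM (reads on the gene scaled to the size of its library) and 675 to 836 CPM. Liver markers summed to 1.07 to 1.60 CPM in Input and 0.494 to 0.967 CPM in Polysome, with 12 and 11 of 20 at 0. In the Ctrl libraries the same 20 markers all had reads, at 1.27 to 161 CPM in Input and 85.9 to 179 CPM in Polysome. That liver RNA signal lies on the Ctrl side of every siRNAG5-Ctrl comparison, and its part in them was not tested.

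GEMIN5 was lower in the silenced cells. Its reads in Input numbered 112, 97, 125 and 127 in siRNAG5 libraries 1 to 4, and 160, 253, 180 and 218 in Ctrl. Scaled over all 16 libraries these are 6.22 to 7.45 CPM and 15.9 to 20.6 CPM, and the groups did not overlap. Within siRNAG5 cells the remaining GEMIN5 mRNA was also light on polysomes. It stood at 7.88, 6.92, 6.56 and 7.16 CPM in Input and at 2.34, 3.52, 3.47 and 2.59 CPM in Polysome, a log2 fold change of -1.25 (SE 0.18, adjusted p = 0.0001259), as in Ctrl cells (-1.25). Of the 10 SMN complex genes tested, 3 fell (30.0%) and none rose, against 21.2% lower and 23.9% higher among all genes. GEMIN4 fell by 1.26 and GEMIN8 by 0.87 on the log2 scale, while GEMIN2 (-0.02) and SMN1 (0.12), whose reads cannot be fully separated from those of its near-identical copy SMN2, did not pass the test. The median of the list was -0.13, and 0.61 when libraries were scaled to their totals.

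Across 14795 genes tested, 6667 (45.1%) differed, of which 3535 (23.9%) were higher and 3132 (21.2%) lower in Polysome at an adjusted p under 0.05 and a log2 fold change beyond 0.5. The median of all genes was -0.04. Polysome and Input did not overlap for 49.2% of the genes, 25.5% with Polysome higher and 23.7% with Polysome lower. Of the 6667 called genes, 4734 were called in the same direction with either set of Polysome libraries, 2813 higher and 1921 lower, and none differed in sign between the sets. Both sets are part of the libraries that gave the calls and share the same Input, so this is not an independent check. The Polysome share is relative. Scaling to library totals instead of TMM, an alternative chosen after seeing the data, moved the median gene by 0.74 upward and gave 8516 genes higher and 797 lower. A gene called lower by less than this shift is not lower on that scale, and the medians of 16 of 33 lists change sign, which is named beside each list.

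**Figure D1:**
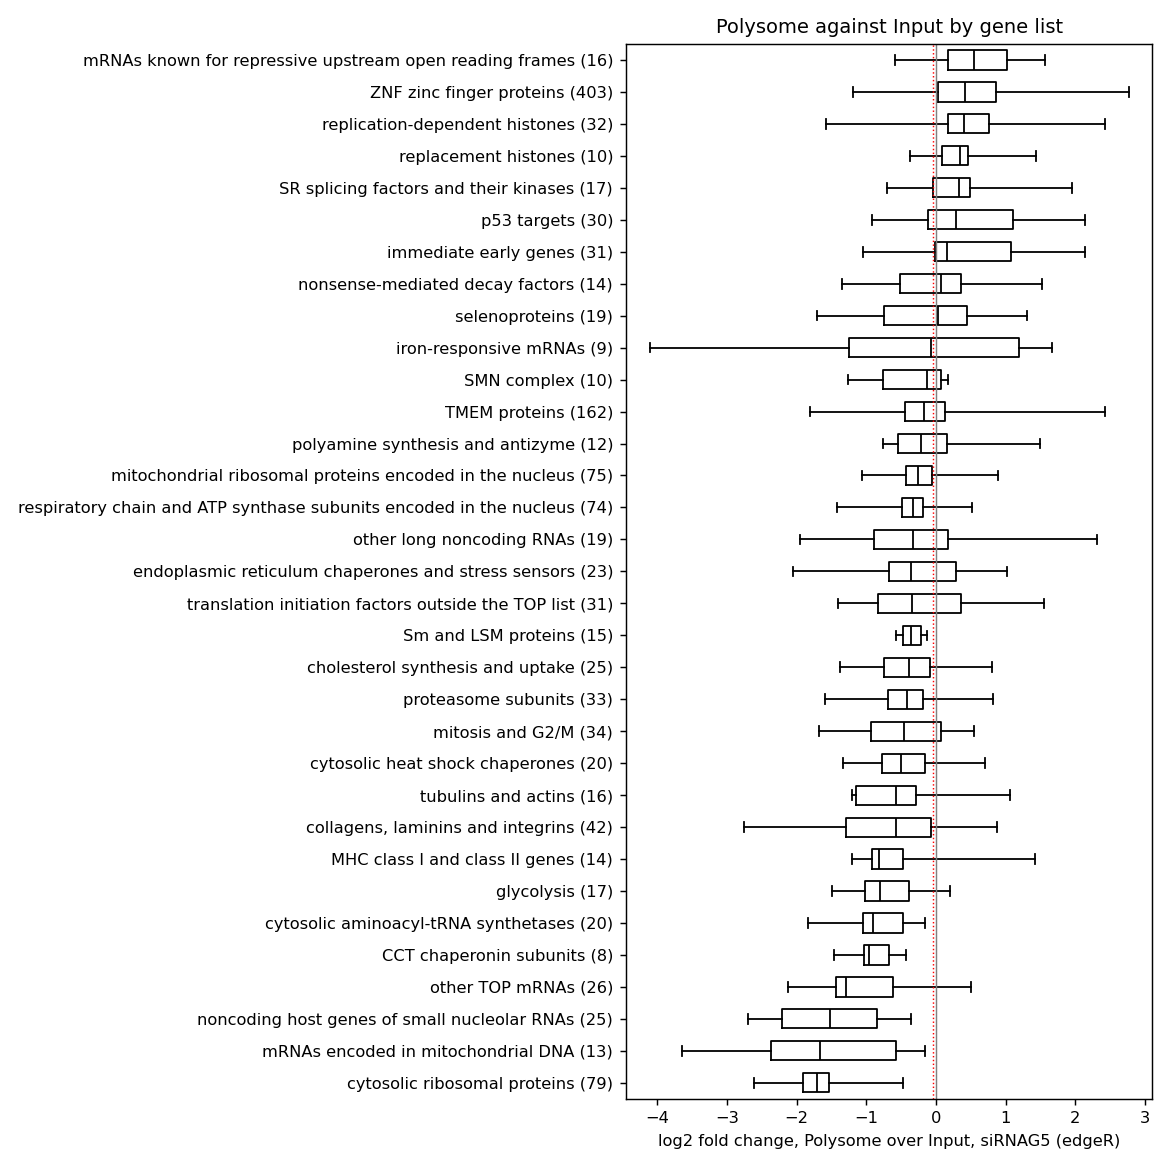
Log2 fold change of Polysome over Input in siRNAG5 cells for the tested genes of each list, with the number tested in parentheses. Boxes span the quartiles, whiskers the lowest and highest member, the grey line is 0 and the dotted line the median of all genes (-0.04). Ribosomal proteins have the lowest median (-1.71) and mRNAs with repressive upstream open reading frames the highest (0.54).

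The proteins of the cytosolic ribosome stood at the low end of the polysome ratio. Of 79 ribosomal protein mRNAs, 78 fell and none rose, against 21.2% lower among all genes. The median log2 fold change was -1.71, and it was -2.10 with libraries 2 and 3 and -1.34 with libraries 1 and 4. These mRNAs took 35.0% to 35.9% of the reads on genes in Input and 13.4% to 19.8% in Polysome. RPS2, a protein of the small subunit, read 30600, 30500, 28900 and 28600 CPM in Input and 6400, 3090, 3320 and 6630 CPM in Polysome, so that no Polysome library reached the lowest Input library. Its log2 fold change was -2.61 (SE 0.28, adjusted p = 1.547e-05). RPL12 (-2.35) and RPLP0 (-2.31), proteins of the ribosomal stalk region, followed. RPL17 alone did not pass the test (-0.47, adjusted p = 0.1863), and it was called without Polysome library 4 (-0.72). It read 34.0 to 40.7 CPM in Input, against 952 to 1030 CPM for RPS26, and multiply mapped reads were not counted. RPS26 (-0.74) was the least changed of those that passed, and it lost its call with libraries 1 and 4 alone (-0.41).

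The other TOP mRNAs were mostly lower too. Of 27 members 26 were tested, and their median was -1.29. Of these 20 fell (76.9%, against 21.2% of all genes) and 1 rose (3.85%, against 23.9%). RACK1, a scaffold protein of the small subunit, and TPT1, the translationally controlled tumour protein, both had -2.12. EEF1A1, the elongation factor that delivers aminoacyl-tRNAs, fell from 15600, 16000, 14600 and 15100 CPM to 5230, 3670, 3390 and 4320 CPM, a log2 fold change of -1.88 (SE 0.19, adjusted p = 8.687e-06). CCNI, a cyclin, was the 1 member called higher, at the limit of the call (0.50), and it lost the call when any of Input libraries 1, 3 and 4 or Polysome libraries 3 and 4 was left out (0.46 to 0.50).

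A TOP-like start was read from the RefSeq gene starts as C followed by at least 4 pyrimidines at the first base. It was present in 1102 of 27195 starts (4.05%), and in 545 of the 10095 tested protein-coding genes that matched the table (5.40%). Among 63 matched ribosomal protein genes 43 held it (68.3%), and among 18 other TOP mRNAs 15 did (83.3%). Outside both lists, 487 of 10014 genes held it, and 29.4% of those were lower in Polysome, against 16.8% of the genes without it. Their medians were -0.16 and 0.04. Inside the lists the order of the medians was not the same. Other TOP mRNAs with the start had a median of -0.85 and the few without it -1.34. Ribosomal proteins had -1.72 with it and -1.62 without it. The start used in these cells was not measured and may differ from the annotated base.

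Further genes of the translation apparatus were mixed. Of 31 genes listed as initiation factors outside the TOP list, 7 rose (22.6%, near the background of 23.9%) and 13 fell (41.9% against 21.2%). EIF4H, which stimulates the helicase eIF4A, rose from 99.5, 104, 95.9 and 106 CPM to 265, 314, 297 and 312 CPM (1.55, SE 0.11, adjusted p = 8.694e-07). EIF4G2 (1.42) and EIF1AX (1.24) rose too, and EIF3D (-1.41), EIF4A3 (-1.30) and EIF3C (-1.21) fell. EIF4A3 is in the list but is not an initiation factor despite its symbol. It had -0.73 in libraries 2 and 3 and -2.07 in libraries 1 and 4. EIF3C read 11.1 to 14.1 CPM in Input, against 674 to 803 CPM for EIF3D, and multiply mapped reads were not counted. The list median was -0.35, and 0.39 on library totals. Among 20 cytosolic aminoacyl-tRNA synthetases, which charge tRNAs with their amino acids, 15 fell and none rose (median -0.90). QARS1 (-1.84), VARS1 (-1.72) and AARS1 (-1.59) were lowest.

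The ferritin mRNAs had the 2 lowest log2 fold changes among coding genes with a mean of at least 10 CPM. FTL read 1480, 1520, 1450 and 1480 CPM in Input and 112, 72.6, 60.1 and 98.5 CPM in Polysome. FTH1, the heavy chain, read 3350, 3300, 3350 and 3150 CPM against 296, 201, 180 and 271 CPM. The Input values of each lay far above every Polysome value, and the log2 fold changes were -4.11 (SE 0.20) and -3.79 (SE 0.19), both with an adjusted p of 1.547e-07, or 17.3-fold and 13.9-fold lower. In Ctrl cells they were -4.17 and -4.16. In the same list of 9, CDC14A (1.67), CDC42BPA (1.24) and EPAS1 (1.19, with 0.77 in libraries 1 and 4) rose. The median of this list was -0.08, with 0.07 in libraries 2 and 3 and 0.15 in libraries 1 and 4, and 0.66 on library totals. Among processed pseudogenes, whose reads cannot be cleanly separated from those of their parents, 9 of 10 named after the ferritins and 301 of 332 named after ribosomal proteins were lower. The share of all genes was 21.2%.

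**Figure D2:**
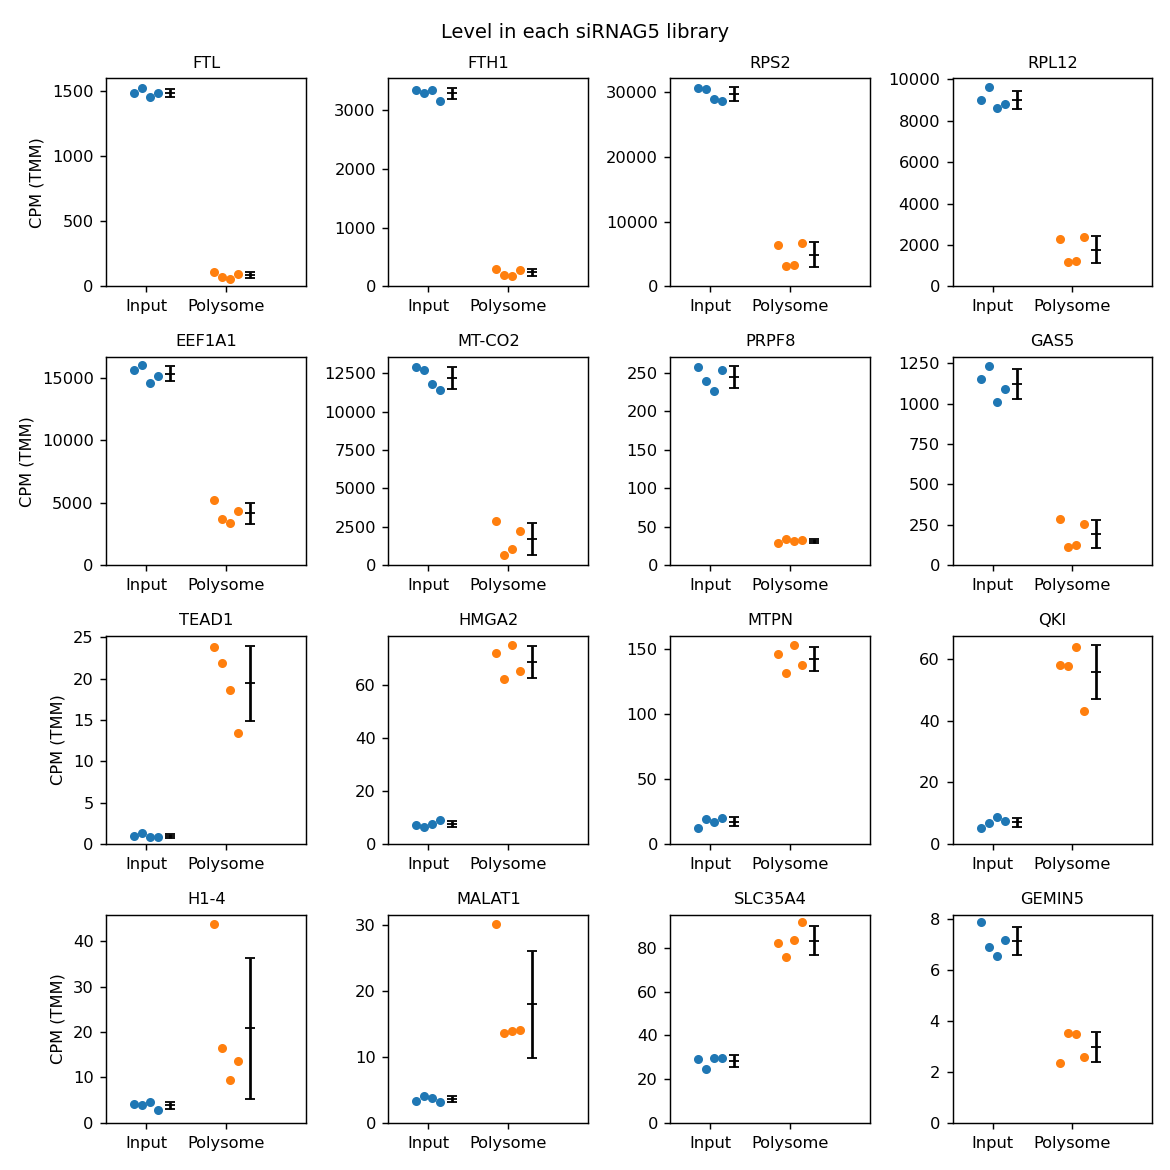
Level of 16 genes in the 8 siRNAG5 libraries, in TMM-scaled CPM on axes that start at 0, with Input in blue and Polysome in orange, libraries 1 to 4 from left to right. Black bars give the mean ± SD of 4 libraries. FTL falls from 1450 to 1520 CPM in Input to 60.1 to 112 CPM in Polysome, and HMGA2 rises from 6.64 to 8.91 CPM to 62.6 to 75.2 CPM.

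Apart from ferritin, RPS2 and mitochondrial mRNAs, the most depleted coding genes with a mean of at least 10 CPM were PRPF8, ST6GALNAC6, LAMB2 and C12orf75. PRPF8, the core protein of the spliceosome, read 258, 240, 227 and 254 CPM in Input and 28.8, 34.1, 31.4 and 32.9 CPM in Polysome. This difference (-2.94, SE 0.11, adjusted p = 6.933e-08) varied little between the library sets, at -2.83 and -2.98. LAMB2, a laminin chain, fell by 2.76 and ST6GALNAC6, a sialyltransferase, by 2.88.

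At the other end stood 10 coding genes with log2 fold changes of 2.88 to 4.31. TEAD1, the DNA-binding partner of YAP, read 0.915, 1.28, 0.892 and 0.846 CPM in Input and 23.8, 21.9, 18.7 and 13.4 CPM in Polysome (4.31, SE 0.23, adjusted p = 2.385e-07). HMGA2, an architectural chromatin protein, read 7.04, 6.64, 7.77 and 8.91 CPM and 72.4, 62.6, 75.2 and 65.3 CPM (3.18, SE 0.13, adjusted p = 8.606e-08). TEAD1 was read at 1.28 CPM or less in every Input library. DDAH1 (3.16), the tyrosine phosphatase PTPN11 (3.14), MTPN (3.05), PPP1R9B (3.04), the RNA-binding protein QKI (2.98), SNX27 (2.96), LASP1 (2.91) and ARHGEF12 (2.88) completed the 10. All 10 were chosen among called genes whose groups did not overlap, so that trait was set by the choice.

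Most of these genes differ in the length of their 3' untranslated region (UTR), taken from the canonical transcripts of GENCODE. It measured 7515 bases in TEAD1, 7882 in QKI, 4126 in PTPN11, 3166 in MTPN and 2999 in HMGA2, and 144 in FTL, 442 in FTH1, 173 in PRPF8, 112 in LAMB2 and 40 in RPS2. Those of ST6GALNAC6 (1278) and C12orf75 (918) were longer, and that of PPP1R9B (1594) was the shortest of the 10 enriched genes. Over 12348 protein-coding genes the rank correlation of 3' UTR length with the log2 fold change was 0.51, a description across genes of the same 8 libraries. It was 0.54 with libraries 2 and 3, 0.43 with libraries 1 and 4, and 0.51 without the TOP and mitochondrial mRNAs. In 3 equal classes by GC content it was 0.39, 0.48 and 0.48, and in 3 by abundance 0.48, 0.50 and 0.47. Of 1379 genes with a 3' UTR under 250 bases, 1.96% were higher and 43.3% lower, with a median of -0.47. Of 1748 genes with at least 3000 and under 5000 bases, 49.4% were higher and 6.81% lower, with a median of 0.54. In Ctrl cells the medians of these classes were -0.37 and 0.40.

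Coding length had no such stable relation. Its rank correlation with the log2 fold change was 0.06, and it was 0.22 with Polysome libraries 2 and 3 and -0.13 with libraries 1 and 4. Genes with a coding sequence under 300 bases had medians of 0.05, -0.56, -0.55 and 0.10 in Polysome libraries 1 to 4, so that the sets lay on opposite sides of 0. Genes of 9600 bases or more were low in all 4, from -0.58 to -0.20. Length of the 5' UTR (0.31) and GC content of the transcript (-0.29) kept their sign in every Polysome library. Genes called higher had a median 3' UTR of 2610 bases and genes called lower one of 502 bases, with the same median coding length of 1563 bases.

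**Figure D3:**
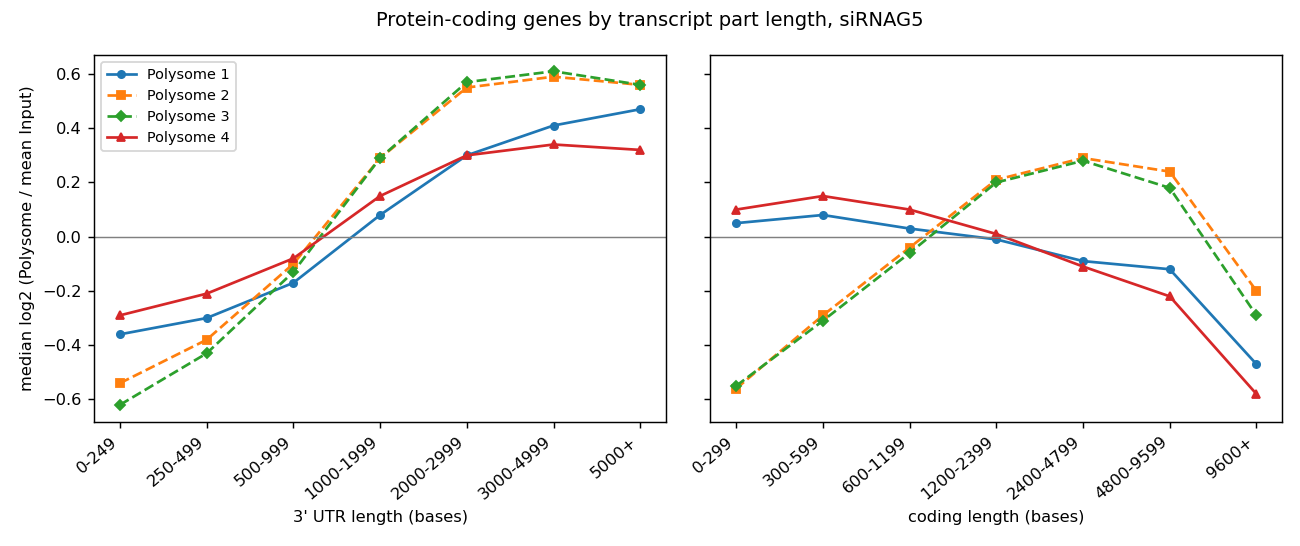
Median log2 ratio of each Polysome library to the mean of Input, over protein-coding genes grouped by 3' UTR length (left) and coding length (right), both in bases. The 4 lines, 1 per Polysome library, rise together with 3' UTR length, and they part by library set for coding sequences under 300 bases (0.05 and 0.10 against -0.56 and -0.55).

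Transcripts of mitochondrial DNA are translated inside the organelle by its own ribosomes. Of 13 such mRNAs, 8 fell and none rose (median -1.67). MT-CO2, a subunit of cytochrome c oxidase, read 12900, 12700, 11800 and 11400 CPM in Input and 2890, 684, 1050 and 2210 CPM in Polysome (-2.83, SE 0.38, adjusted p = 8.239e-05). MT-ND3 (-3.65) and MT-ATP6 (-2.57) were also among the 10 most depleted coding genes, whereas MT-CO1 (-0.58), MT-CYB (-0.55) and MT-ND5 (-0.16) did not pass. With libraries 2 and 3 these 3 genes had -1.33, -1.42 and -0.36, and the first 2 were called. With libraries 1 and 4 they had -0.04, 0.03 and 0.07. The level differed between library sets, with a median of -2.88 in libraries 2 and 3 and -1.14 in libraries 1 and 4, and the mitochondrial share of reads was 3.13%, 0.879%, 1.66% and 2.78% in Polysome 1 to 4 against 4.22% to 4.76% in Input. Of 74 nuclear genes of the respiratory chain, 18 were lower (24.3%) and 1 higher (1.35%), with a median of -0.33. Of 75 nuclear genes of the mitochondrial ribosome, 11 were lower (14.7%) and 3 higher (4.0%), with a median of -0.25. The shares among all genes were 21.2% lower and 23.9% higher, so higher calls were much rarer in both lists. Both list medians were above 0 on library totals (0.41 and 0.49). With libraries 2 and 3 they were -0.54 and -0.36, and with libraries 1 and 4 both were -0.04.

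Histone mRNAs of the replication-dependent class end in a stem-loop and lack a poly(A) tail, so a poly(A) library records only a part of them. Of 64 genes, 32 were tested, 7 rose and 2 fell, with a median of 0.41, which was 0.14 with libraries 2 and 3 and 0.69 with libraries 1 and 4. The share that rose (21.9%) was near the 23.9% of all genes, and the share that fell was 6.25% against 21.2%. H1-4, a linker histone, read 4.22, 3.85, 4.57 and 2.82 CPM in Input and 43.7, 16.5, 9.49 and 13.7 CPM in Polysome (2.43, SE 0.42, adjusted p = 0.0004751). Library 1 was the highest of the Polysome group, and the groups did not overlap. H4C11 fell by 1.58 and H2AC25 by 0.95 (-1.34 with libraries 2 and 3, -0.59 with libraries 1 and 4). The list median was 0.75, 0.31, -0.19 and 0.25 in Polysome 1 to 4, and thus not of one sign. Of 10 replacement histones, which are polyadenylated, 2 rose and none fell, and H3-3B rose by 0.80.

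Noncoding RNAs were lower more often than higher on the TMM scale. Of 1274 long noncoding RNAs 336 (26.4%) fell and 133 (10.4%) rose, against 21.2% and 23.9% of all genes. Their median was -0.26, which was -0.45 with libraries 2 and 3 and -0.01 with libraries 1 and 4. It is smaller than the upward shift of 0.74 that library totals gave the median gene. Host genes of small nucleolar RNAs, several of which begin with a pyrimidine run, fell in 21 of 25 cases and rose in none (median -1.53). GAS5 read 1150, 1230, 1010 and 1090 CPM in Input and 285, 115, 122 and 253 CPM in Polysome (-2.53, SE 0.28, adjusted p = 1.993e-05), and SNHG19 (-2.69) and SNHG6 (-2.62) were lower still. Among 19 other noncoding RNAs 2 rose and 5 fell (median -0.34, with -0.68 in libraries 2 and 3 and -0.01 in libraries 1 and 4, and 0.40 on library totals). MALAT1, a nuclear RNA, was higher in Polysome at 30.2, 13.7, 13.9 and 14.1 CPM against 3.16 to 4.14 CPM in Input (2.32, adjusted p = 2.913e-05), and TUG1, listed here as noncoding but annotated by GENCODE as protein-coding, rose by 2.06. NEAT1, which builds paraspeckles, fell by 1.61. LINC00265 (3.16) and LINC00641 (2.59) were the named noncoding genes with the largest increase, from under 1 CPM in Input, and the pseudogene FTH1P8 (-5.10) and SNORA11F (-4.63) had the largest decrease.

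mRNAs known for upstream open reading frames that restrain the main frame were, with a median of 0.54, the highest list. Of 18 members 16 were tested, 8 rose and 1 fell, against 23.9% higher among all genes. SLC35A4 read 29.0, 24.5, 29.9 and 29.7 CPM in Input and 82.2, 76.0, 83.6 and 91.7 CPM in Polysome (1.56, SE 0.11, adjusted p = 1.143e-06). PPP1R15B (1.56), a phosphatase subunit of the stress response, and AZIN1 (1.50), the antizyme inhibitor, rose as well. ATF4, the stress transcription factor, had -0.41 (adjusted p = 0.05654) and was called without Polysome library 1 (-0.55), and the rest of the list is given by its counts. DDIT3, the CHOP protein, was the 1 member called lower (-0.58, adjusted p = 0.02368), and it lost the call when any of Input libraries 1 and 2 or Polysome libraries 2 and 3 was left out (-0.55 to -0.43).

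The ZNF, immediate early and p53 lists held more higher calls than all genes did (39.2%, 32.3% and 40.0% against 23.9%). Of 403 ZNF zinc finger genes, 158 rose and 14 fell (median 0.42), led by ZNF275 (2.77), ZNF8 (2.76) and ZNF609 (2.68). Of 31 immediate early genes 10 rose and 2 fell (median 0.16, with 0.58 in libraries 2 and 3 and 0.04 in libraries 1 and 4), among them ZFP36L1 (2.14), which promotes decay of AU-rich mRNAs, KLF6 (2.01) and SRF (1.74). Of 30 p53 targets 12 rose and 3 fell (median 0.29, with 0.45 in libraries 2 and 3 and 0.23 in libraries 1 and 4), with TP53INP1 (2.14), ZMAT3 (2.08) and FBXW7 (1.97) highest. SRSF1, a splicing factor, rose from 58.2, 63.0, 65.2 and 64.2 CPM to 225, 232, 270 and 243 CPM (1.95, SE 0.11, adjusted p = 2.495e-07), but of 17 SR proteins and kinases 4 rose (23.5%) and 1 fell, a share of higher calls near that of all genes. Of 14 nonsense-mediated decay factors 3 rose and 3 fell (21.4% each), also near the background. The medians of the last 2 lists were 0.61 and 0.36 with libraries 2 and 3 and -0.07 and -0.24 with libraries 1 and 4.

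Lists of glycolysis, chaperonin and MHC genes held more lower than higher calls, while among all genes 21.2% were lower and 23.9% higher. Of 17 glycolysis genes 11 fell and none rose (median -0.81, with -0.43 in libraries 2 and 3 and -1.19 in libraries 1 and 4). GAPDH read 10000, 10400, 8570 and 8980 CPM in Input and 3280, 3670, 3360 and 3160 CPM in Polysome (-1.50, SE 0.15, adjusted p = 1.223e-05). Of the 8 subunits of the CCT chaperonin, which folds actin and tubulin, 6 fell, with CCT3 at -1.46, and all 8 were without overlap (median -0.96, with -0.61 in libraries 2 and 3 and -1.22 in libraries 1 and 4). TCP1 (-0.43) and CCT6A (-0.46) were below the fold limit, and CCT6A passed it without Input library 1 or without Polysome library 2 or 3 (-0.55 to -0.52). Of 14 MHC genes 9 fell and TAPBP (1.42) rose.

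Lists whose median turned above 0 on library totals are given with that value. Among all genes 21.2% were lower and 23.9% higher. Of 16 tubulins and actins 9 fell and 1 rose (median -0.57, then 0.17), with ACTG1 at -1.20 and TUBB4A at 1.06 (0.51 in libraries 1 and 4). Of 42 collagens, laminins and integrins 21 fell and 1 rose (-0.58, then 0.16), and LAMA5 (-2.26) and LAMA1 (-2.06) followed LAMB2. Of 33 proteasome subunits 16 fell and 2 rose (-0.42, then 0.32), from PSMD1 (-1.60) to PSMD5 (0.81). Of 20 cytosolic heat shock chaperones 9 fell and 2 rose (-0.50, then 0.24), and of 23 chaperones and sensors of the endoplasmic reticulum 9 fell and 3 rose (-0.35, then 0.39), with HSP90B1 at -2.06 and HSPA5, known as BiP, at -1.66. Of 25 cholesterol genes 10 fell and 1 rose (-0.39, then 0.35), and the rise was in SREBF2 (0.81), the regulator of the pathway, while SREBF1 fell by 1.38 (-0.83 in libraries 2 and 3, -2.13 in libraries 1 and 4). Of 34 mitosis genes 17 fell and 2 rose (-0.46, then 0.28), with KIF20A lowest (-1.67). Sm and LSM proteins, of which only the Sm proteins form the ring that the SMN complex loads, had 2 of 15 lower (13.3%) and none higher (-0.36, then 0.38). These were LSM8 (-0.57) and SNRPF (-0.53), and both lost the call without Polysome library 2 or 3 (-0.50 to -0.44). Of 12 polyamine genes 4 fell and 1 rose (-0.21, then 0.53). Of 162 TMEM genes 28 fell (17.3%) and 21 rose (13.0%), both below the shares of all genes (-0.17, then 0.57). Among 19 selenoproteins 7 fell and 4 rose, from SELENOW (-1.71) to TXNRD1 (1.32), and the list median of 0.04 was -0.19 with libraries 2 and 3 and 0.26 with libraries 1 and 4. Of the lists in this paragraph, the medians that departed clearly between libraries 2 and 3 and libraries 1 and 4 were those of collagens, laminins and integrins (-0.26 and -0.76), heat shock chaperones (-0.19 and -0.80), endoplasmic reticulum chaperones (-0.17 and -0.41), tubulins and actins (-0.46 and -0.90), mitosis (-0.25 and -0.78), Sm and LSM proteins (-0.68 and -0.07), polyamine genes (-0.44 and 0.01) and TMEM genes (-0.19 and -0.05).

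**Figure D4:**
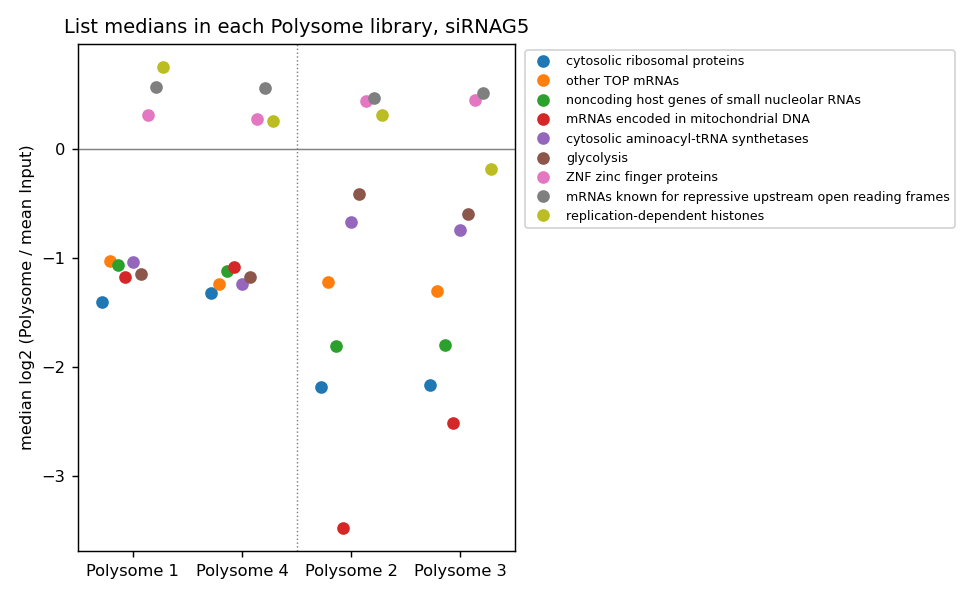
Median log2 ratio to the mean of Input for 9 gene lists in each siRNAG5 Polysome library, with libraries 1 and 4 left and libraries 2 and 3 right of the dotted line. Ribosomal proteins were lower in the right set (-2.19 and -2.17) than in the left (-1.41 and -1.32), and aminoacyl-tRNA synthetases higher (-0.67 and -0.75 against -1.04 and -1.24).

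Whether the Polysome-Input difference in siRNAG5 cells departs from that in Ctrl cells was tested as an interaction over all 16 libraries. By edgeR's quasi-likelihood test 0 of 14958 genes passed (0.0%), 1089 had an unadjusted p under 0.05 (7.28%), and DESeq2 called 29, of which 18 were higher and 11 lower. Ribosomal protein mRNAs had a median of -1.01 in Ctrl cells and -1.71 in siRNAG5 cells, and 67 of 79 had an unadjusted p under 0.05 in the lower direction, against 4.69% of all genes. The lowest adjusted p among them was 0.386, and the siRNAG5 value was -1.34 in libraries 1 and 4. Ctrl Polysome libraries also differed among themselves. Ribosomal protein mRNAs took 18.5% to 24.0% of their reads on genes, against 13.4% to 19.8% in siRNAG5 Polysome. The Ctrl medians pool these libraries. Mitochondrial mRNAs had a median of -3.18 in Ctrl cells and -1.67 in siRNAG5 cells, which was -2.88 in libraries 2 and 3. Of 13, 7 had an unadjusted p under 0.05 in the higher direction, against 2.59% of all genes, and the lowest adjusted p was 0.479. Replication-dependent histones had a median of 0.85 in Ctrl and 0.41 in siRNAG5 cells. Of 32, 5 had an unadjusted p under 0.05 in the lower direction, against 4.69% of all genes. NEAT1 had 0.05 in Ctrl and -1.61 in siRNAG5 cells (interaction adjusted p = 0.2266). H4C11 had 0.31 and -1.58 (interaction adjusted p = 0.2266).

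**Figure D5:**
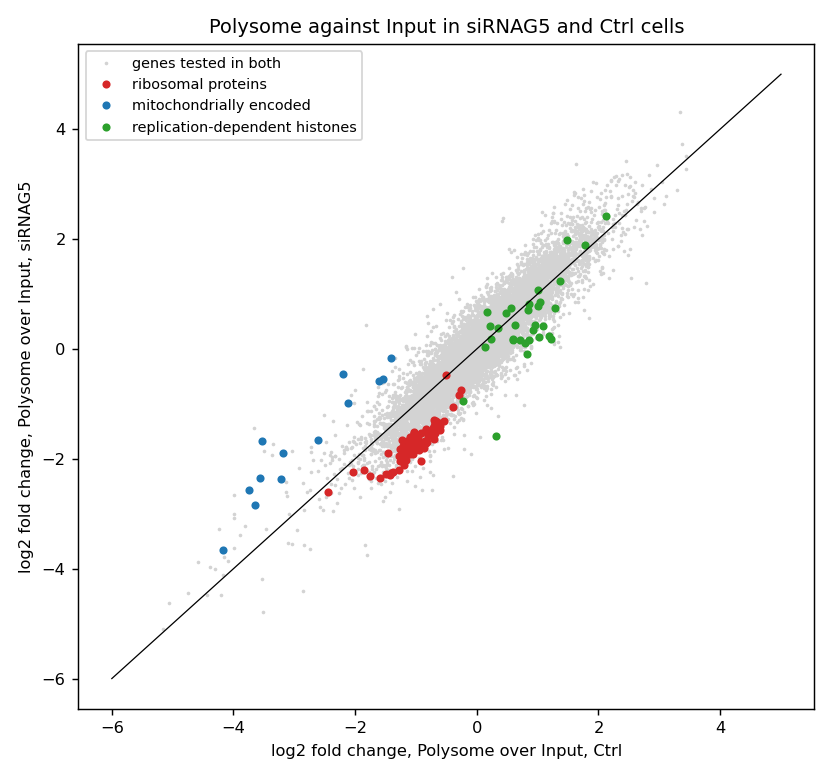
Log2 fold change of Polysome over Input in Ctrl cells (horizontal) and siRNAG5 cells (vertical) for each gene tested in both, with the line of equal values in black. Ribosomal proteins lie mostly below the line (medians -1.01 and -1.71) and mitochondrial mRNAs above it (medians -3.18 and -1.67); no gene passed edgeR's test of the difference, and DESeq2 called 29.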

How the data were processed

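Counts per gene were made by the authors, who aligned paired reads to GRCh38 with STAR 2.5.3a and counted them with QoRTs. The deposited counts were used without change, and the last 5 lines of each file, which name no gene, were left out. Symbols came from GENCODE release 44, which named 57532 of 58302 gene IDs. Polysome was compared with Input over the 8 siRNAG5 libraries by edgeR 4.0.16 (filterByExpr, TMM, quasi-likelihood test, Benjamini-Hochberg adjustment), without covariates. The Ctrl difference was fitted alike, and an interaction over 16 libraries. A call needed an adjusted p under 0.05 and a log2 fold change beyond 0.5. Ratios per library used a pseudocount of 0.5 CPM. The script was tested on simulated counts. The study describes 4 biological replicates a group. Named genes were GEMIN5, the 10 coding genes (mean at least 10 CPM) and 5 other genes (at least 1 CPM) most changed each way without overlap, the 3 highest and 3 lowest of each list, and all mitochondrial and SMN complex genes. The members and the lists were chosen with earlier results of these data known. Alternatives were RLE and upper quartile scaling, no filter, DESeq2 1.42.0, a replicate block, all libraries in one fit, other fold limits, and leaving out libraries. Some genes that this rule names are not reported here.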

Additional observations from a re-analysis of the deposited data

Results flagged for a closer look

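In 23 of 433 groups of 4 libraries examined, 1 library lay apart from the other 3 by Dixon's test, and chance gives about 1 in 20. Polysome library 1 had 42.4% multiply mapped reads, and the next library 29.0%. It was also highest for MALAT1 (30.2 CPM, next 14.1) and ZMAT3 (20.1 CPM, next 11.5). Polysome library 4 was lowest for LINC00641 (0.811 CPM, next 3.33) and gave the highest median of the replacement histones (0.49, next 0.28). For the genes that follow, the library that lay apart was not the same from gene to gene. In Polysome 1 library was lowest for ENSG00000272599 (0.176 CPM, next 0.761) and EBLN3P (24.2, next 27.0), and 1 was highest for SDHC (243, next 214) and KRT8 (50.0, next 35.8). In Input 1 library was lowest for each of ST6GALNAC6 (37.1 CPM, next 43.9), MT-CO3 (11200, next 12700), EIF1AX (117, next 150.0), H2AJ (30.5, next 37.8), SLC35A4 (24.5, next 29.0), CCT6A (392, next 458) and HSPA4 (142, next 174). Likewise 1 Input library was highest for each of LAMB2 (23.6 CPM, next 19.2), TEAD1 (1.28, next 0.915), AARS1 (185, next 163), H2BC4 (2.60, next 1.71), SNHG6 (230.0, next 206), SELENOO (44.6, next 37.8) and TMEM127 (4.62, next 3.28).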

How the results depend on the processing

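Genes called higher numbered 3277 to 3842 and lower 2791 to 3282 when 1 library was left out. Beyond a log2 fold change of 1 there were 1873 higher and 1485 lower, a test against 0.5 left 2379 higher and 1770 lower, and library totals gave 8516 and 797. The difference from Ctrl cells gave 28 higher and 29 lower genes without the filter and 18 and 11 by DESeq2, and 0 to 1 lower when a library was left out. With the replicate number as a block 3454 genes were higher and 3250 lower, and 6483 were called in both fits. Same-numbered Input and Polysome libraries deviated with r of 0.21, 0.15, -0.01 and -0.30, so the numbers were not taken as pairs. With Polysome libraries 2 and 3 alone the list medians that moved by more than the spread between Polysome libraries were aminoacyl-tRNA synthetases -0.64, mitochondrial mRNAs -2.88, small nucleolar RNA hosts -1.98, upstream open reading frames 0.65, iron-responsive mRNAs 0.07, immediate early genes 0.58, zinc fingers 0.59, matrix -0.26, proteasome -0.38, heat shock -0.19, endoplasmic reticulum -0.17, SMN complex -0.10, decay factors 0.36, p53 targets 0.45 and MHC -0.75. With libraries 1 and 4 alone they were other TOP -1.11, initiation factors -0.46, small nucleolar RNA hosts -1.11, iron-responsive 0.15, tubulins and actins -0.90, proteasome -0.46, heat shock -0.80, SR proteins -0.07, decay factors -0.24, mitosis -0.78, MHC -0.77 and TMEM -0.05, and the rank correlation with 3' UTR length was 0.43. In one fit of all libraries the medians were 0.46 for upstream open reading frames, -0.50 for the proteasome, -0.22 for the SMN complex and -0.90 for MHC. Without the filter they were -0.10 for the SMN complex and -0.78 for MHC, which had -0.79 under upper quartile scaling. Leaving out 1 library gave iron-responsive -0.22 to 0.12, proteasome -0.49 to -0.40, SMN complex -0.20 to -0.09 and MHC -0.85 to -0.77. The causes were not tested. Depth limits genes under 1 CPM, such as TEAD1 in Input.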
